A study of Mus musculus with 27 samples.

Results

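The genes described here are the immunoglobulin variable (V) segments of the mouse genome, measured in the lungs of 27 mice. All genes that the deposited tables class as IG_V_gene were taken, 218 of 56941 genes. Of these, 113 belong to the heavy chain locus on chromosome 12 (symbols starting with Ighv), 100 to the kappa light chain locus on chromosome 6 (Igkv) and 3 to the lambda light chain locus on chromosome 16 (Iglv). The other 2, Gm43218 and Gm42543, carry symbols that name no chain and entered the counts of all segments but no chain.

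Whole lungs of male C57Bl/6J mice aged 7 to 8 weeks were profiled by RNA sequencing of polyA-selected RNA. Each mouse was given 5 doses into the throat, at intervals of 2 to 3 days, of either 10 µg house dust mite extract (HDM) in 50 µl or PBS, and 24 h later 100 µl of either saline (SAL) or combustion products (CP) at 2 mg/ml, made by burning paper, plastic and plywood. Lungs were taken 24 h after that. This gave 7 libraries each of mice given PBS then saline (PBS_SAL), PBS then CP (PBS_CP) and HDM then CP (HDM_CP), and 6 of mice given HDM then saline (HDM_SAL), all of 1 inbred strain with no genetic change named in the labels, and libraries are named by group and by the number in their label. The labels do not say whether mice shared a cage, litter or day. The p-values set differences between groups against the spread between these libraries and take the libraries as independent.

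An antibody is made of paired heavy and light chains, and the V segment encodes most of the part of each chain that binds antigen. A developing B cell joins 1 V segment of each chain to a J segment (through a D segment in the heavy chain) and keeps that choice in all its descendants, so a clone of B cells or of their antibody-secreting progeny, the plasma cells, transcribes a single heavy and a single light segment. Plasma cells hold far more immunoglobulin RNA per cell than resting B cells. In the lung, B cells reside in the tissue and in blood, and plasma cells gather there after repeated exposure to antigen. In a bulk sample, fewer cells of a type and less RNA per cell cannot be told apart, and bulk RNA does not show which heavy and light chains came from the same cell.

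The germline sequences of the segments on which the results turn are shown to make clear how alike their transcripts are, since reads are assigned to segments through the bases that differ. They are the last 280 bases of the annotated transcript, 5′ to 3′, from GENCODE M21, in lower case, with capitals at each base that differs from the closest relative among the 218 segments. Sequences were matched by gene identifier, and positions are those of the deposited tables (GRCm39). Ighv8-8 (chr12:115257682-115258124, minus strand; closest to Ighv8-11, 9 bases apart) and Igkv4-91 (chr6:68745539-68746087, minus strand; closest to Igkv4-79, 36 bases apart) led 1 library.
Ighv8-8: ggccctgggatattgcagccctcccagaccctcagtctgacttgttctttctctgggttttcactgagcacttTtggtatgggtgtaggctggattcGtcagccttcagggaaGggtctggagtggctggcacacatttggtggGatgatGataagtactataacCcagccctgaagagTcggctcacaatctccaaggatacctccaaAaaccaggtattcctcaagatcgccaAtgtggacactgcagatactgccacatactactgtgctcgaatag
Igkv4-91: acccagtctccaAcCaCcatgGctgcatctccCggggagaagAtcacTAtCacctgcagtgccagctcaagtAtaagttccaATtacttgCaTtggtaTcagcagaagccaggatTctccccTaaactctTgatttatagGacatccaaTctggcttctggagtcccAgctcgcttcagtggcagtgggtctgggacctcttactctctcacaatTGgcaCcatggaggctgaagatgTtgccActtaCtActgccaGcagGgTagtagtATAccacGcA

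Ighv1-26 (chr12:114751992-114752425, minus strand; 8 bases from Ighv1-18) and Ighv1-81 (chr12:115883899-115884332, minus strand; 21 bases from Ighv1-85) were the heavy segments that most often led a library.
Ighv1-26: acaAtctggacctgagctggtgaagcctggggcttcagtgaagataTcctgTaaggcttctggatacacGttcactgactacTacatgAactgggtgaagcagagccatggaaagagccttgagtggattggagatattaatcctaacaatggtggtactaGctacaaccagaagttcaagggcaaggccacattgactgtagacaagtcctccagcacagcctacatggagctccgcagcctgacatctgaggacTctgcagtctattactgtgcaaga
Ighv1-81: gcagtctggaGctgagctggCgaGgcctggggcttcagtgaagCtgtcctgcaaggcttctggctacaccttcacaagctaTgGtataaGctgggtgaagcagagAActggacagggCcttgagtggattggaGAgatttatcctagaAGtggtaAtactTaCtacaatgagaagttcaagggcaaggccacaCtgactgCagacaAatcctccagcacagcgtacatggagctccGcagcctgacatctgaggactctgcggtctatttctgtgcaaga

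Igkv1-110 (chr6:68247469-68248251, plus strand) and Igkv1-117 (chr6:68098030-68098811, plus strand) were the kappa segments that most often led a library, and they are each other's closest relative, with 9 of 280 bases different.
Igkv1-110: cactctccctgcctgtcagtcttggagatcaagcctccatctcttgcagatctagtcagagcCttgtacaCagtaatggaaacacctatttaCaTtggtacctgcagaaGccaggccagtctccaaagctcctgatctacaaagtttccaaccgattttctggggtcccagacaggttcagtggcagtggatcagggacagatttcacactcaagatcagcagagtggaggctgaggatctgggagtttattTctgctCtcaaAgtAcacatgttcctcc
Igkv1-117: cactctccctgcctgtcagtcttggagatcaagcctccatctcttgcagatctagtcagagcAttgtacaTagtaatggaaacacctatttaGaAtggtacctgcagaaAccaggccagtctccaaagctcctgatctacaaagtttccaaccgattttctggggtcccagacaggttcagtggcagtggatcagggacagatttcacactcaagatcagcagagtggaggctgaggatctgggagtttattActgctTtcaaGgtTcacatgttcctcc

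Igkv17-121 (chr6:68013796-68014302, plus strand; 6 bases from Igkv17-127) and Ighv1-71 (chr12:115705825-115706267, minus strand) were among the segments called higher in HDM_CP than in PBS_CP. Ighv1-71 has no capitals because Ighv1-62-2 (chr12:115410029-115410489, minus strand) is identical to it over these 280 bases.
Igkv17-121: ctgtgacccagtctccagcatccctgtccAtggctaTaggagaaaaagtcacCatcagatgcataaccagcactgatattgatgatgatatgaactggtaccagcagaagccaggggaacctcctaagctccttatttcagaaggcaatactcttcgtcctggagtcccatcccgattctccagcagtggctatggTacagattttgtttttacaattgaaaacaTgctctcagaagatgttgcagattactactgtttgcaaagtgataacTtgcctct
Ighv1-71: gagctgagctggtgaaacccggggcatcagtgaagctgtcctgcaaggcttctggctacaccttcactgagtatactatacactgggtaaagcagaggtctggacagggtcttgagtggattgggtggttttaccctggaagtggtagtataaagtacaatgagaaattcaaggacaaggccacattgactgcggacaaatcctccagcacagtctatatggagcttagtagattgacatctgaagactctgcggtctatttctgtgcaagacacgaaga

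Such likeness was common. Of the 218 segments, 112 had a relative with at least 95% identity over these bases, and 24 had one with at least 98%. The median identity to the closest relative was 95.4% for heavy segments and 94.3% for kappa segments. Rearranged V genes also gain mutations in stimulated B cells, which moves reads away from the germline sequence. Counts of single segments are therefore uncertain where a close relative exists, while sums over a chain do not depend on how reads are divided among its segments. The sums can still depend on reads left out or given to genes outside the chain, such as V pseudogenes, which was not tested.

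V segments were weakly but broadly transcribed. Levels are given as CPM, the estimated count of a segment per 1000000 of the estimated counts of a library. Averaged over the 27 libraries, the 218 segments summed to 173 CPM, of which heavy segments made 63.3 CPM, kappa segments 95.9 CPM and lambda segments 13.6 CPM. An estimated count of at least 10 was taken as detection. By that measure 201 segments were detected in at least 1 library, 63 were detected in all 27, 17 were detected in none, and 4 (Ighv6-7, Ighv2-7, Ighv5-12-4 and Igkv1-131) were listed at 0 throughout. The filter on low counts left 170 segments for testing: 83 heavy, 83 kappa, all 3 lambda and Gm43218.

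Use of the segments was uneven in every chain. Of the summed mean level, 50% was held by 16 of the 113 heavy segments and by 13 of the 100 kappa segments. These means include levels reached in a single library. The means of Ighv8-8 (5.29 CPM) and Igkv4-91 (7.98 CPM) rested largely on PBS_SAL 105, with 122 and 174 CPM. Iglv1 alone held most of the lambda counts, with a mean of 9.90 CPM against 2.53 CPM for Iglv2 and 1.21 CPM for Iglv3. On the scale of TPM, which accounts for transcript length, the order was the same, with means of 53.3, 14.7 and 6.63 TPM. Lambda made 14.4% ± 4.97 (SD, n = 27) of the light-chain V counts. Its lowest share, 5.51%, was in PBS_SAL 105 and its highest, 28.0%, in HDM_CP 45.

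By family, Ighv1, the largest mouse heavy family with 53 members, held 53.0% ± 8.15 (SD, n = 27) of the heavy V counts. Ighv5 followed with 10.5% ± 5.37 and Ighv2 with 6.04% ± 1.84. Among kappa families Igkv1 held 19.4% ± 6.92, Igkv6 14.7% ± 3.98 and Igkv4 14.1% ± 10.4. Igkv4, with 26 segments, reached 64.3% in PBS_SAL 105, and Ighv8 likewise ranged from 1.44% to 54.6% with its highest share in PBS_SAL 105. With each locus cut into 3 parts of nearly equal numbers of segments, those nearest the J cluster held 31.7% ± 5.31 of the heavy and 33.5% ± 6.83 of the kappa V counts, and those farthest away held 36.4% ± 8.80 and 46.6% ± 9.43 (SD, n = 27).

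The summed level of each chain varied more between libraries of a group than between groups. In PBS_SAL the heavy V sum ran from 30.7 CPM over a median of 51.9 CPM to 241 CPM, and in PBS_CP from 26.1 over 41.3 to 116 CPM. It ran from 13.8 over 31.1 to 67.3 CPM in HDM_SAL and from 19.6 over 50.2 to 242 CPM in HDM_CP. In 3 of the 4 groups a single library stood far above the rest: PBS_SAL 105 at 241 CPM, PBS_CP 76 at 116 CPM and HDM_CP 98 at 242 CPM. The lowest was HDM_SAL 54 at 13.8 CPM, and all 4 groups overlapped.

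Kappa sums had the same order of libraries at the top. The lowest, median and highest were 52.0, 76.4 and 302.9 CPM in PBS_SAL and 42.5, 64.6 and 180 CPM in PBS_CP. They were 22.3, 51.2 and 101 CPM in HDM_SAL and 40.2, 71.0 and 360 CPM in HDM_CP. PBS_SAL 105, PBS_CP 76 and HDM_CP 98 were again the highest of their groups. Lambda sums spread less, with medians of 15.8, 10.8, 9.97 and 16.2 CPM in PBS_SAL, PBS_CP, HDM_SAL and HDM_CP, and a range from 5.70 to 34.0 CPM over all libraries.

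**Figure D1:**
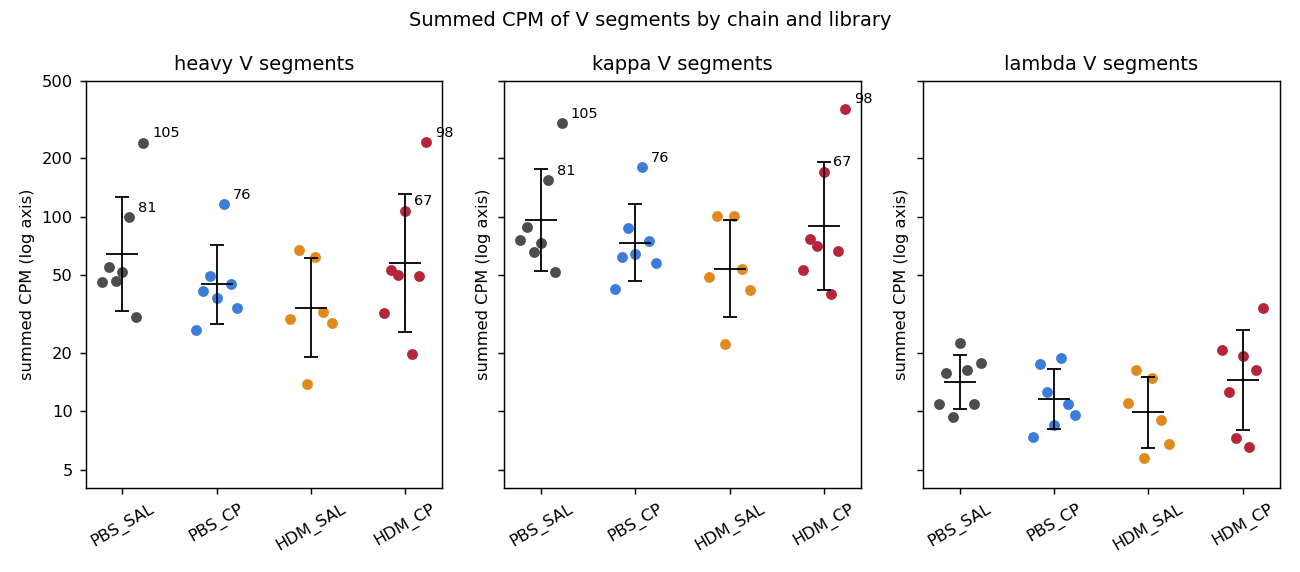
Summed CPM (log axis, shared by the panels) of heavy, kappa and lambda V segments in each of 27 libraries by group; horizontal bars are the mean of log2 values and whiskers 1 SD. Numbers mark PBS_SAL 105 and 81, PBS_CP 76 and HDM_CP 98 and 67, which lie above the other libraries of their group in the heavy and kappa panels.

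No difference in chain sums between groups passed the exact permutation test. On the log2 scale, the mean heavy V sum differed by -0.91 between HDM_SAL and PBS_SAL (exact permutation p = 0.0985 with 6 against 7 libraries) and by 0.76 between HDM_CP and HDM_SAL (exact permutation p = 0.222). The difference was -0.52 between PBS_CP and PBS_SAL and 0.37 between HDM_CP and PBS_CP. The interaction, that is the response to CP in HDM mice less that in PBS mice, was 1.28 for heavy, 1.13 for kappa and 0.85 for lambda segments on the log2 scale (permutation p = 0.0909, 0.110 and 0.0923). Over all 45 tests of chain sums, segments detected and top shares the smallest p adjusted by the Benjamini-Hochberg method was 0.608. Without PBS_SAL 105, PBS_SAL 81 and PBS_CP 76, left out together after their values were seen, the heavy differences were -0.41 for HDM_SAL against PBS_SAL and 1.00 for the interaction, and no adjusted p fell below 0.549. Without HDM_CP 98 the kappa difference between HDM_CP and PBS_CP turned from 0.29 to -0.05. A p above the threshold does not show that the groups were alike, since single libraries spread over more than the differences tested.

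Within the 3 runs of library numbers (45 to 64, 66 to 81 and 96 to 105), which the labels do not call batches, the heavy sum of HDM_CP less that of HDM_SAL was 0.45, 0.24 and 1.02 on the log2 scale. The heavy sum of HDM_SAL less that of PBS_SAL was -0.74, -0.01 and -1.50. These are values without a test, since a run held 1 to 3 libraries of a group. In the last run PBS_SAL 104 and 105 stood at 30.7 and 241 CPM, and HDM_SAL 99 and 100 at 32.5 and 28.4 CPM. HDM_CP 96, 97 and 98 stood at 19.6, 49.6 and 242 CPM, so the differences of that run leaned on PBS_SAL 105 and HDM_CP 98.

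Heavy and kappa sums went together across the libraries of every group. Pearson's r between their log2 sums was 0.993 in PBS_SAL, 0.993 in PBS_CP, 0.997 in HDM_SAL and 0.987 in HDM_CP, with Spearman's rho of 0.893, 0.964, 1 and 1. Exact permutation p-values of r were at most 0.00272 after Benjamini-Hochberg adjustment over 12 relations, and r without the 2 libraries farthest from the median of the heavy sum stayed between 0.925 and 0.992. The heavy V sum also followed the summed heavy constant genes, with r from 0.952 to 0.997 and, without the 2 farthest libraries, from 0.721 to 0.953 (adjusted exact permutation p at most 0.00741 with all libraries). Against Jchain, which links IgA and IgM into polymers and is made by plasma cells, r was 0.906 in PBS_SAL and 0.777 in PBS_CP (adjusted exact permutation p = 0.0121 and 0.0851). Without the 2 farthest libraries these fell to 0.000293 and -0.476, so in the PBS groups the relation to Jchain rested on those libraries. It was 0.875 in HDM_SAL and 0.971 in HDM_CP (adjusted exact permutation p = 0.0318 and 0.00272), and 0.874 and 0.870 without those libraries. Spearman's rho with Jchain was 0.714 in PBS_SAL, 0.214 in PBS_CP, 0.771 in HDM_SAL and 0.893 in HDM_CP, with adjusted p of 0.106, 0.662, 0.112 and 0.0185 by exact permutation.

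The 3 libraries of PBS mice with the highest sums also leaned on a few segments, and did so in both chains at once. The most abundant segment of a library held a median of 8.73% of its heavy V counts over the 27 libraries and 8.88% of its kappa V counts. In PBS_SAL 105 Ighv8-8 held 50.7% of the heavy and Igkv4-91 57.3% of the kappa V counts. In PBS_CP 76 Ighv1-26 held 34.3% and Igkv1-110 28.0%. In PBS_SAL 81 Ighv1-72 held 19.2% and Igkv1-135 20.9%. The effective number of segments, the count of equally used segments that would give the same probability of drawing a segment 2 times in a row, had a median of 38.2 for heavy and 34.8 for kappa segments, and was 3.70 and 2.97 in PBS_SAL 105.

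**Figure D2:**
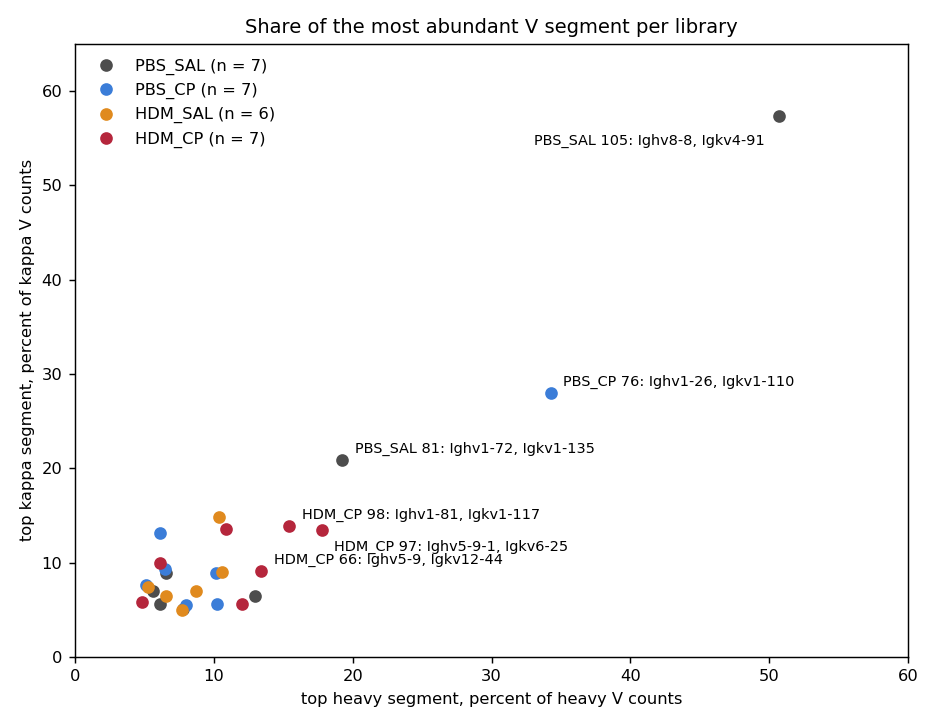
Percent of a library's heavy V counts (x axis) and kappa V counts (y axis) held by its most abundant segment, for 27 libraries coloured by group; labels name a library with its leading heavy and kappa segment. PBS_SAL 105 (50.7% and 57.3%) and PBS_CP 76 (34.3% and 28.0%) lie apart on both axes, while PBS_SAL 81 (19.2% and 20.9%) is near HDM_CP 97 on the heavy axis (17.8%).

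The level of Ighv8-8 was 122 CPM in PBS_SAL 105, while the other 26 libraries lay between 0 and 1.56 CPM. That single library held 85.5% of all Ighv8-8 CPM in the series. Igkv4-91 was at 174 CPM in the same library, at 18.9 CPM in PBS_CP 76, where it was the second kappa segment, and between 0.178 and 3.61 CPM elsewhere. PBS_SAL 105 also had 541 CPM of Igha, the IgA constant gene, against a median of 55.7 CPM over all libraries, as well as 226 CPM of Ighg2c (median 1.36), 105 CPM of Ighg2b (median 3.04) and 167 CPM of Jchain (median 15.7). The part of these levels in those of the V segments was not tested.

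In PBS_CP 76, Ighv1-26 stood at 39.8 CPM, against 1.70 to 4.21 CPM in the other PBS_CP libraries, and Igkv1-110 at 50.2 CPM, against 1.04 to 7.59 CPM. Igha was 225 CPM there and Jchain 50.9 CPM. PBS_SAL 81 held 19.2 CPM of Ighv1-72, 13.3 CPM of Ighv9-3 and 32.2 CPM of Igkv1-135, with 78.8 CPM of Ighg2b and 119 CPM of Igha. These 3 libraries came from mice that had received PBS and no HDM.

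In the HDM_CP group 2 libraries with high sums shared their leading segments. Ighv1-81 held 15.4% of the heavy V counts in HDM_CP 98 and 10.9% in HDM_CP 67, and Igkv1-117 held 13.8% and 13.5% of the kappa V counts. Both libraries also had the highest levels of Igkv17-121, 35.3 and 11.1 CPM. Ighg1, the constant gene of IgG1, was 457 CPM in HDM_CP 98 and 88.4 CPM in HDM_CP 67. It was 43.6 CPM in HDM_CP 49 and 26.1 CPM in HDM_CP 97, from 0.971 to 2.12 CPM in the other 3 HDM_CP libraries, from 1.20 to 3.90 CPM in HDM_SAL, and at most 1.08 CPM in all 14 PBS libraries. Ighg1 was the only constant gene called between groups by edgeR, with a log2 fold change of 7.22 ± 1.13 (SE) in HDM_CP against PBS_CP and a Benjamini-Hochberg adjusted p of 0.000343. Against HDM_SAL the adjusted p in edgeR was 0.0958, with 5.29 ± 1.07 on the log2 scale. The HDM_CP libraries overlapped with both groups. The part of Ighg1 transcripts in the V levels was not tested.

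HDM_CP 97 and HDM_CP 66 leaned on other segments. In HDM_CP 97 Ighv5-9-1 held 17.8% of the heavy and Igkv6-25 13.5% of the kappa V counts, and it was the only library in which Iglv2, with 66.1%, led the lambda counts. In HDM_CP 66 Ighv5-9 held 13.4% of the heavy V counts (6.73 CPM, where the group ran from 0.107 to 7.15 CPM) and Igkv12-44 led the kappa counts. In PBS_CP 75 Ighv7-1 and Igkv15-103 led, and in HDM_SAL 52 Ighv4-1 and Igkv1-117.

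Leading segments were otherwise shared widely between groups. Ighv1-26 led the heavy counts in 14 libraries of all 4 groups and Ighv1-81 in 5 libraries of 3 groups, and 7 further segments led in 1 or 2 libraries each. Igkv1-117 led the kappa counts in 11 libraries and Igkv1-110 in 9, while Iglv1 led the lambda counts in 26 of 27. Ranked by TPM, the leading segment was the same in 25 libraries for heavy, 26 for kappa and 27 for lambda segments. The exceptions were HDM_SAL 52 and PBS_CP 75 for heavy and HDM_CP 96 for kappa segments. The commonest pair of leaders was Ighv1-26 with Igkv1-117, in 8 libraries. The shares of Ighv1-81 over 10% were in 4 libraries of HDM mice, HDM_SAL 99 and 100 and HDM_CP 67 and 98, while its highest share in a PBS mouse was 6.56% in PBS_SAL 79. That contrast was picked out after its values were seen and has no test.

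The common leaders Ighv1-26, Ighv1-81, Igkv1-117 and Igkv1-110 were not called by edgeR in any comparison with all libraries and the counts as deposited. In the order PBS_SAL, PBS_CP, HDM_SAL and HDM_CP, medians of Ighv1-26 were 3.60, 2.32, 1.96 and 3.25 CPM, and those of Ighv1-81 were 1.65, 1.52, 2.76 and 3.51 CPM. Medians of Igkv1-117 were 4.65, 3.95, 4.82 and 4.72 CPM, and those of Igkv1-110 were 4.71, 4.57, 4.36 and 7.18 CPM. The smallest adjusted p-values among the 4 were 0.0767 for Ighv1-81, with a log2 fold change of 2.27 ± 0.78 (SE), and 0.0948 for Igkv1-117, with 1.66 ± 0.60, both in HDM_CP against PBS_CP (edgeR, Benjamini-Hochberg). In that comparison edgeR called Ighv1-81 with values divided by 4, without HDM_CP 45 and without HDM_CP 96, and DESeq2 called both Ighv1-81 and Igkv1-117.

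**Figure D3:**
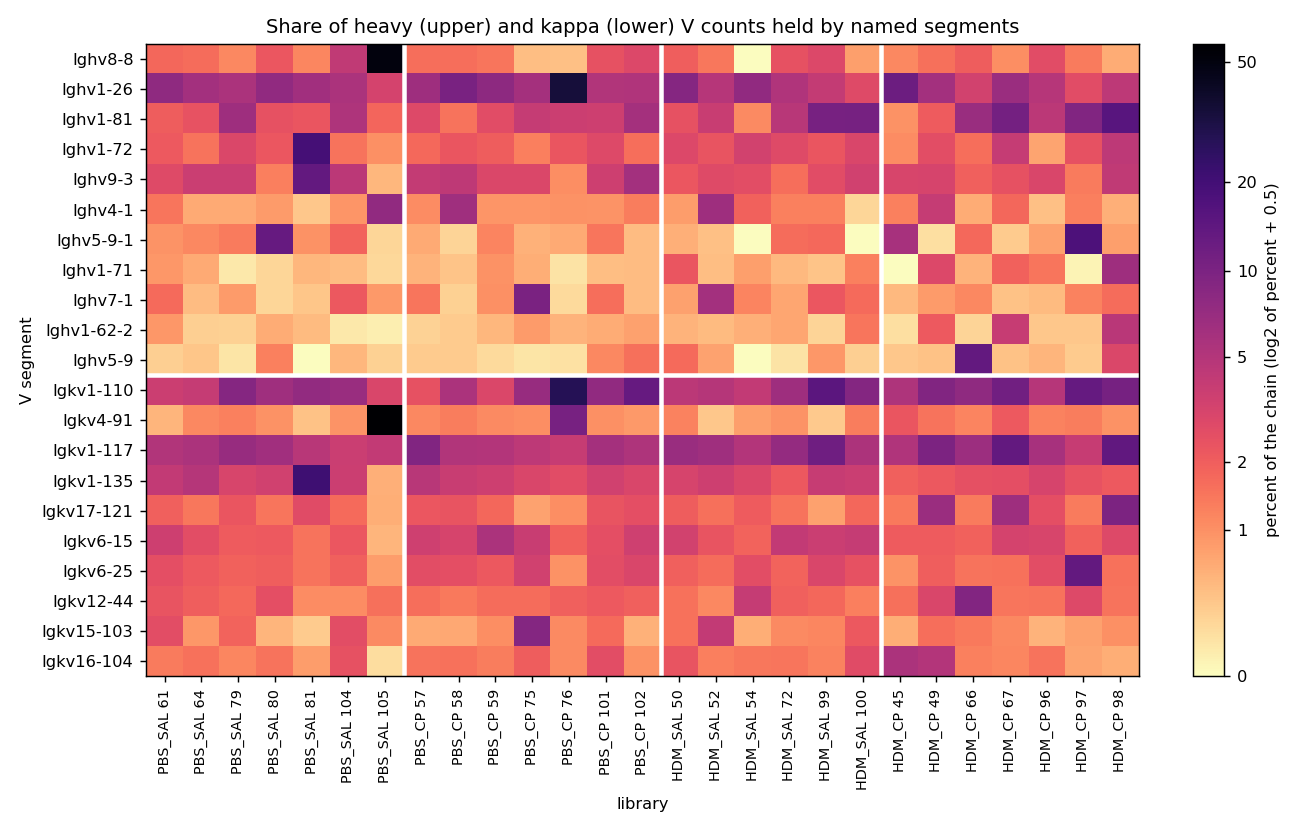
Percent of the heavy or kappa V counts of each library (columns, ordered by group) held by the named heavy segments (upper block) and kappa segments (lower block), on a colour scale of log2(percent + 0.5). Dark cells mark Ighv8-8 and Igkv4-91 in PBS_SAL 105 (50.7% and 57.3%), Ighv1-26 and Igkv1-110 in PBS_CP 76, and Ighv1-72 and Igkv1-135 in PBS_SAL 81.

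Mean shares of the top segment did not pass a test between groups. For heavy segments they were 15.6% ± 16.3 in PBS_SAL, 11.5% ± 10.2 in PBS_CP, 8.20% ± 2.12 in HDM_SAL and 11.5% ± 4.70 in HDM_CP (SD). Exact permutation p-values of the 4 pairwise differences ran from 0.143, for HDM_CP against HDM_SAL, to 0.996, for HDM_CP against PBS_CP. Without PBS_SAL 105 alone the heavy difference of PBS_CP from PBS_SAL turned from -4.09 to 1.77 percentage points and the kappa difference from -4.74 to 2.16. The smallest unadjusted p of the 45 chain tests, 0.0740 by exact permutation, was that of the lambda top share, 76.0% in HDM_CP and 70.3% in HDM_SAL.

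Family shares did not pass either. Among 40 exact permutation tests on the 10 families with at least 5% of their chain, the smallest adjusted p was 0.268, for Ighv14 in PBS_CP (6.20% against 3.56% in PBS_SAL) and for Ighv2 in HDM_CP (4.81% against 7.69% in HDM_SAL).

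Heavy segments with an estimated count of at least 10 numbered from 36 in HDM_SAL 54, which had the smallest heavy total of 1004 estimated counts, to 81 in HDM_CP 98, which had the largest at 19030, and in HDM_SAL 72, with 5167. PBS_SAL 105 had the second largest total, 13647, but 70 segments, the median of the series. Group means were 70.7 ± 7.72 in PBS_SAL, 65.1 ± 9.19 in PBS_CP, 60.2 ± 16.3 in HDM_SAL and 69.3 ± 8.46 in HDM_CP (SD). The difference of HDM_SAL from PBS_SAL was -10.5 (exact permutation p = 0.152). Estimated counts were also divided by 4 and each library reduced by calculation to the smallest heavy total of 250. Segments with at least 1 count then counted as found. The segments expected were 64.7 ± 11.1, 67.1 ± 5.19, 68.5 ± 2.76 and 65.6 ± 4.86 in the same order. The differences for heavy and kappa segments changed sign in all 5 comparisons. The PBS_SAL mean includes 41.8 heavy segments in PBS_SAL 105, and the calculation was not repeated without that library. Group medians of the expected heavy segments were 68.7, 68.4, 68.8 and 66.7. All 3 lambda segments were detected in every library.

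**Figure D4:**
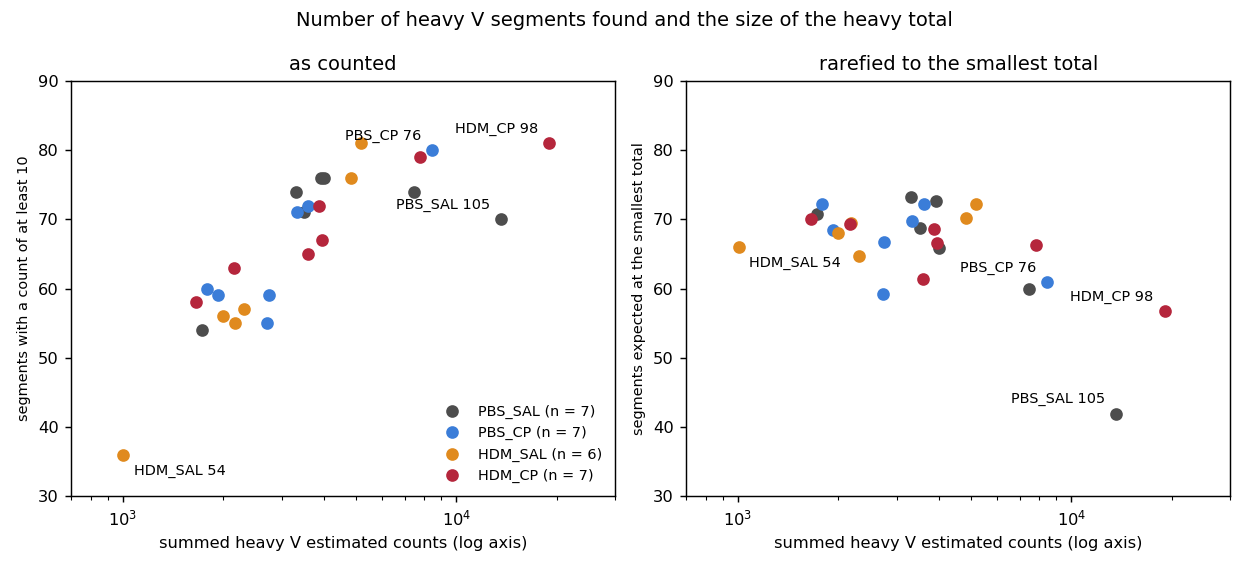
Heavy V segments found in each of 27 libraries against the summed heavy V estimated counts (log axis). They were counted at an estimated count of at least 10 (left), or calculated for the smallest heavy total with at least 1 count left (right). HDM_SAL 54 is lowest on the left with 36, and PBS_SAL 105 is lowest on the right with 41.8.

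The order of the segments by share was similar between libraries. Spearman's rho between the shares of a library and the mean shares of the other libraries over all segments of the chain lay between 0.760 and 0.920 for heavy and between 0.824 and 0.959 for kappa segments. The Morisita-Horn index, which weighs abundant segments most and is 1 for identical shares, had group medians of 0.796 to 0.900 for heavy segments and fell to 0.124 in its lowest library, and for kappa segments to 0.108. These are descriptions, since the libraries share the annotation and its ambiguous reads.

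Single segments were tested in the edgeR fit over all 24629 genes that passed the filter, with adjusted p-values by the Benjamini-Hochberg method over all of them and a threshold of 0.05. In HDM_SAL against PBS_SAL, 2 of 170 segments were called, both lower, where 5.44% of all genes tested were called and 2.25% were called lower. They were Ighv8-8, with a log2 fold change of -4.66 ± 1.24 (SE) and an adjusted p of 0.0273 in edgeR, and Igkv4-91, with -5.70 ± 1.63 and an adjusted p of 0.0400. In HDM_SAL, Ighv8-8 ran from 0 over a median of 0.765 to 1.51 CPM. In PBS_SAL it ran from 0.518 over 1.15 to 122 CPM. For Igkv4-91 the values were 0.178, 0.465 and 0.960 CPM in HDM_SAL and 0.406, 0.725 and 174 CPM in PBS_SAL. The groups overlapped for both segments, and both calls rested on PBS_SAL 105. Without that library Ighv8-8 changed by -0.48 (adjusted p = 0.666 in edgeR) and Igkv4-91 by -0.53 (adjusted p = 0.776). Both calls were also lost without HDM_SAL 50, 54 or 99, and that of Igkv4-91 without HDM_SAL 52, 72 or 100, but with fold changes of -4.41 to -4.76 for Ighv8-8 and -5.54 to -6.04 for Igkv4-91. With runs of library numbers as a term no segment was called in this comparison (Ighv8-8 at -3.13, adjusted p = 0.177; Igkv4-91 at -4.36, adjusted p = 0.206 in edgeR), and none with only the groups compared in the fit (adjusted p = 0.153 and 0.128). The count of called segments was 4 without PBS_SAL 79 or HDM_CP 98, and 1 without HDM_SAL 52, HDM_SAL 100 or PBS_SAL 105, in the last case Igkv19-93. DESeq2 called neither but 6 others, all lower, and limma voom called none.

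In HDM_CP against PBS_CP, 4 of 170 segments were called, all higher, where 7.87% of all genes tested were called and 5.6% were called higher. Ighv1-71 had a log2 fold change of 3.64 ± 0.96 (SE; adjusted p = 0.0184 in edgeR). In HDM_CP it ran from 0 over a median of 0.284 to 16.0 CPM, and in PBS_CP from 0.146 over 0.178 to 0.483 CPM. Ighv1-62-2, whose printed bases are the same, had 3.04 ± 0.89 (adjusted p = 0.0336), and reads over those bases cannot tell both segments apart. It ran from 0.0590 over 0.180 to 11.1 CPM in HDM_CP and from 0.0731 over 0.266 to 0.659 CPM in PBS_CP.

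The other 2 segments called in HDM_CP against PBS_CP were Igkv17-121 and Ighv5-9. Igkv17-121 had 2.51 ± 0.71 (SE; adjusted p = 0.0278 in edgeR), with 0.737, 1.02 and 35.3 CPM as lowest, median and highest value in HDM_CP and 0.492, 1.47 and 1.88 CPM in PBS_CP. Its median was thus higher in PBS_CP, as was that of Ighv1-62-2. Ighv5-9 had 3.22 ± 1.00 (adjusted p = 0.0468), with 0.107, 0.219 and 7.15 CPM in HDM_CP and 0.0562, 0.136 and 0.531 CPM in PBS_CP. For all 4 the groups overlapped: at most 3 of 7 HDM_CP libraries exceeded the highest PBS_CP library. For Ighv1-71 and for Ighv1-62-2, 2 of 7 HDM_CP libraries lay below the lowest PBS_CP library. Without HDM_CP 98 none of the 170 segments passed in this comparison. The fold change was then 1.63 for Ighv1-71, 1.74 for Ighv1-62-2, 1.28 for Igkv17-121 and 2.52 for Ighv5-9, with adjusted p from 0.156 to 0.234 in edgeR. With runs of library numbers as a term no segment was called here either, with fold changes of 2.35 to 3.30 and adjusted p of 0.0534 to 0.0863 for the 4, and none with only the groups compared (adjusted p of 0.0914 to 0.124 in edgeR). Ighv5-9 passed in 9 of the 27 fits that left out 1 library. The count of called segments was 1 without HDM_CP 67, PBS_CP 57 or PBS_CP 75, 2 without PBS_CP 58, 59 or 101, and 7 without HDM_CP 96. DESeq2 called 8 segments, all higher and the 4 among them, and limma voom none.

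**Figure D5:**
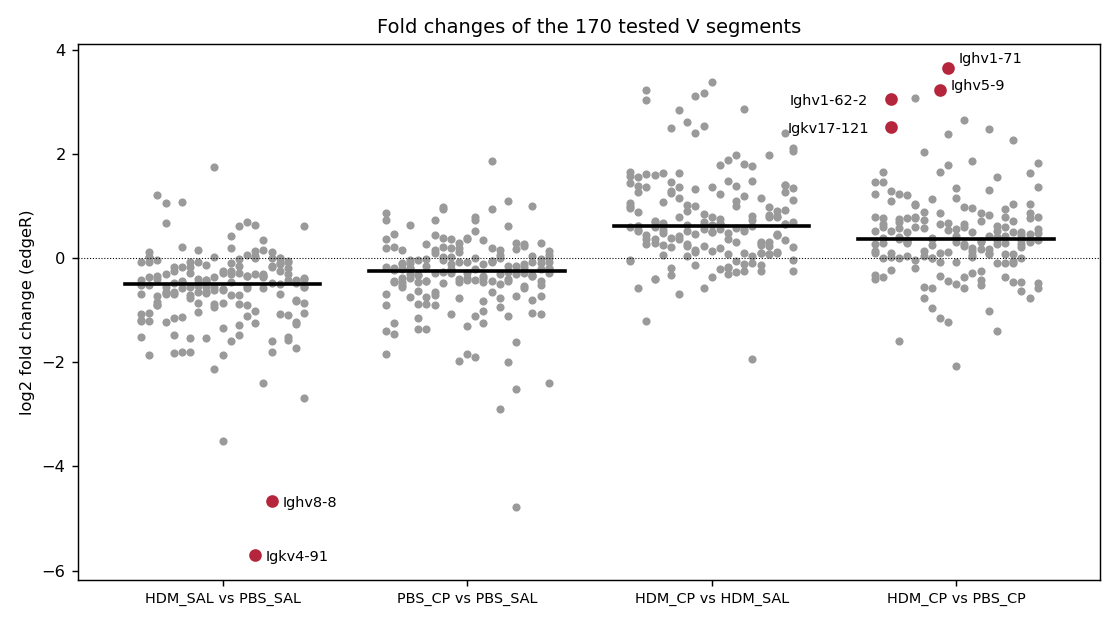
Log2 fold changes from edgeR of the 170 tested V segments (points) in 4 comparisons; red points have an adjusted p under 0.05 and are named, and black bars are the medians. Medians lie at -0.50, -0.25, 0.62 and 0.37 from left to right, and 2 segments on the left and 4 on the right are called.

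No segment was called in the other comparisons, in edgeR or by limma voom. In PBS_CP against PBS_SAL the count in edgeR was 0 of 170, where 0.00812% of all genes were called, and 0 by DESeq2. In HDM_CP against HDM_SAL it was 0 in edgeR, where 0.00406% of all genes were called, and 5 by DESeq2, all higher. For the interaction it was 0 in edgeR, where 0% of all genes were called, and 0 by DESeq2.

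Fold changes of the segments nevertheless leaned to 1 side in each comparison. In HDM_SAL against PBS_SAL 145 of 170 were negative, with a median of -0.50 against 0.01 over all genes tested (0.00 in each of the other comparisons). At an unadjusted p under 0.05 stood 24 segments (14.1%), all lower, where 20% of all genes did. In PBS_CP against PBS_SAL 122 were negative, with a median of -0.25, and 13 (7.65%), all lower, were under that value, where 5.45% of all genes were. In HDM_CP against HDM_SAL 144 were positive, with a median of 0.62, and 40 (23.5%) were under it, all higher, where 9.7% of all genes were. In HDM_CP against PBS_CP 129 were positive, with a median of 0.37, and 23 (13.5%) were under it, 22 of them higher, where 20.7% of all genes were. For the interaction 148 were positive, with a median of 0.88, and 38 (22.4%) were under it, all higher, where 6.38% of all genes were. The comparisons share groups (PBS_SAL in the first 2, HDM_SAL in the first and the third), and the segments of a library come from the same tissue, so these counts are not independent. HDM_CP 98 was the highest of all libraries for 68 of the 170 tested segments and PBS_SAL 105 for 22.

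The smallest adjusted p of HDM_CP against HDM_SAL was 0.152 in edgeR. It was reached by Igkv17-121, at 3.03 ± 0.77 (SE) on the log2 scale, and by Ighv14-2, at 2.60 ± 0.67. Without HDM_CP 45, 1 segment was called in this comparison.

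The spread between libraries was larger for V segments than for most genes of their level. The biological coefficient of variation, edgeR's estimate of the relative spread between libraries, had a median of 0.717 over the 170 segments, against 0.352 over 13289 other genes in the same range of mean log2 CPM. It was 0.241 over 17 genes of resting and circulating B cells, 0.562 over 11 immunoglobulin constant genes and 0.541 over 31 T cell receptor V segments. In 43 of the 170 segments the highest library exceeded the median by at least 10 times. In 5 a single library held over 50% of all CPM: Ighv8-8 and Igkv4-91 in PBS_SAL 105, Ighv1-62-2 and Ighv1-71 in HDM_CP 98, and Ighv1-20 in HDM_CP 97.

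Genes of the cells that transcribe V segments were followed through lists. Of 17 B cell genes, such as Ms4a1 and Cd79a, edgeR called none in any comparison, with 0 at an unadjusted p under 0.05 in all 5, and medians between -0.21 and 0.14. The shares of all genes called, 5.44% in HDM_SAL against PBS_SAL and 7.87% in HDM_CP against PBS_CP, stand behind the counts of the following lists. Of 15 plasma cell genes edgeR called 1 higher in HDM_SAL against PBS_SAL (Ell2, an elongation factor, by 0.28 ± 0.08 on the log2 scale), where 8 were positive and 7 negative with a median of 0.03. It called 4 higher in HDM_CP against PBS_CP, where 13 were positive and the median was 0.40. These were Derl3 (1.05 ± 0.25) and Creld2 (0.40 ± 0.10), which act in the endoplasmic reticulum, the transcription factor Irf4 (0.76 ± 0.17) and Slamf7 (0.83 ± 0.22), a surface receptor. Other lung cells express several of these genes too. Sdc1, for example, is a plasma cell marker that epithelium also makes, and it stayed between 149 and 218 CPM in all libraries.

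Among 11 genes of immunoglobulin transport and Fc receptors, edgeR called 2 higher in HDM_SAL against PBS_SAL and 6 higher in HDM_CP against PBS_CP, where 5.44% and 7.87% of all genes were called. The medians of this list were 0.15 and 0.82. Pigr, which carries polymeric IgA and IgM across epithelium, was higher by 2.86 ± 0.33 and 2.17 ± 0.31 on the log2 scale. Fcgr2b, the inhibitory IgG receptor, was higher by 0.71 ± 0.19 and 1.30 ± 0.18. The IgG receptors Fcgr3 (1.09 ± 0.19) and Fcgr1 (0.82 ± 0.16) were higher in HDM_CP against PBS_CP. Of 13 genes of germinal centres and class switching, 3 were higher in HDM_CP against PBS_CP, with a list median of 0.06: Il21, a cytokine of follicular helper T cells (3.12 ± 0.97), Basp1 (0.98 ± 0.24) and Ung, an enzyme of class switching (0.52 ± 0.15). Of 12 genes of B cell homing and survival, Cxcl13, which draws B cells into follicles (1.73 ± 0.42), and Tnfsf13b, the survival factor BAFF (0.40 ± 0.08), were higher in that comparison, with a list median of 0.16. In HDM_SAL against PBS_SAL, Tnfsf13 (APRIL, a plasma cell survival factor) was higher by 0.45 ± 0.13, and Ccl21a, a chemokine of lymphoid tissue, was lower, at -0.49 ± 0.13. No member of these 4 lists was called in PBS_CP against PBS_SAL, in HDM_CP against HDM_SAL or for the interaction. The part of these genes' cells in the V levels was not tested.

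Genes of V(D)J recombination, the step by which V segments are joined in developing B cells, were followed as a list too, and those named here were low. Over the 27 libraries Rag1 ran from 0 over a median of 0.181 to 1.30 CPM, and Dntt from 0 over 0.267 to 0.662 CPM. For scale, the mean levels of the 218 V segments had a median of 0.381 CPM. Rag2 ran from 0 to 0.0961 CPM, and Vpreb1, of the surrogate light chain, was listed at 0 in all. None of the 4 genes of this list that were tested was called in any comparison, with 0 or 1 at an unadjusted p under 0.05. The shares of all genes at an unadjusted p under 0.05 were 20%, 5.45%, 9.7%, 20.7% and 6.38% in HDM_SAL against PBS_SAL, PBS_CP against PBS_SAL, HDM_CP against HDM_SAL, HDM_CP against PBS_CP and the interaction, and the counts that follow are in the same order. Of 12 immunoglobulin J segments none was called (2, 2, 2, 0 and 4 at an unadjusted p under 0.05), and their medians of -0.49, -0.24, 0.67, 0.46 and 1.06 had the signs of the V segments in all 5 comparisons. Of 31 T cell receptor V segments none was called (1, 1, 0, 2 and 1 at an unadjusted p under 0.05), with medians of -0.24, -0.11, 0.34, -0.09 and 0.34. Those medians also had the signs of the immunoglobulin V segments, except in HDM_CP against PBS_CP. Of 12 T cell genes none was called (0, 0, 0, 1 and 0).

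The 3 lambda segments were called in no comparison. Iglv1 had a log2 fold change of -0.56 ± 0.35 (SE) in HDM_SAL against PBS_SAL and of 0.69 ± 0.35 in HDM_CP against HDM_SAL. Its group medians were 12.3 CPM in PBS_SAL, 8.50 CPM in PBS_CP, 7.16 CPM in HDM_SAL and 10.5 CPM in HDM_CP, and the groups overlapped. Iglv2 had 1.23 ± 0.50 in HDM_CP against PBS_CP (adjusted p = 0.146 in edgeR), with its highest level, 10.7 CPM, in HDM_CP 97. Iglv3 had 0.02 ± 0.34 in HDM_SAL against PBS_SAL and -0.36 ± 0.33 in HDM_CP against PBS_CP. Iglv1 and Iglv2 differ in 7 of the last 280 bases of their transcripts, at 97.5% identity.

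The lung label was borne out by lung genes in every library, with at least 9523 CPM of Sftpc, the surfactant protein of type II cells, and 1147 CPM of Ager, a type I cell gene. Library totals of the deposited estimated counts ran from 56.3 to 84.5 M (M, 1000000), against 20 M read pairs planned, so they were not read as a direct count of read pairs.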

How the data were processed

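RNA of whole lung was measured in 27 libraries, 1 per mouse as far as the labels say, with polyA selection and 20 M (M, 1000000) read pairs of 150 bases planned, per the labels' protocols. The submitters' processing notes list STAR, without a version, StringTie 2 and the GRCm39 build; GENCODE M33 appears in the name of the deposited tables. The authors deposited estimated counts, whole numbers summing to 56.3 to 84.5 M per library over 56941 genes, and TPM values normalized by the authors. These sums exceed the number of read pairs planned; the number sequenced was not used here, so the scale of the estimated counts against reads is not known. Genes without a symbol (310, with 0.060% of the estimated counts) were kept under their identifiers. The sources used here do not say whether reads were counted by strand or how reads shared by similar segments were divided.

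The estimated counts were rounded and fitted in R 4.3.3 with edgeR 4.0.16 (filterByExpr with a minimum count of 10, TMM scaling, 4 group means, robust quasi-likelihood F tests, two-sided) over 24629 genes, with Benjamini-Hochberg adjustment over all of them and a threshold of 0.05. The SE is the absolute fold change (log2) over the root of F. CPM values are estimated counts per 1000000 of a library's total. Chain sums, segments detected and top shares were compared by two-sided exact permutation tests over libraries. The interaction was tested by 100000 permutations of the residuals of a model without it, with the statistic divided by the residual spread. Tests were checked on simulated data. Alternatives were other scalings and filters, DESeq2 1.42.0, limma 3.58.1 (voom, and log2 of TPM plus a pseudocount of 1 or 0.1), only the groups compared, runs of library numbers as a term, values divided by 4, a log2 fold limit of 1, other detection limits, and leaving out each library in turn; leaving out 3 libraries together was added after seeing the data. The members, lists and tests were chosen with earlier results of these data known.

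Named were all called segments, the 5 heavy and 5 kappa segments with the highest mean CPM, all lambda segments and each segment that led its chain in a library. Called members of the lists were named too (all where at most 5, otherwise the 4 with the smallest p). Sdc1, Rag1, Rag2, Dntt, Vpreb1, Sftpc, Ager and constant genes were added to describe the libraries. Ighv1-20, Ighv14-2 and Igkv19-93 were singled out after their values were seen. Germline sequences came from GENCODE M21 transcripts, matched by gene identifier for all 218 segments; that release is on another build, so its coordinates were not used.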

Additional observations from a re-analysis of the deposited data

Results flagged for a closer look

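Checks covered 112 groups of values, each with 6 or 7 libraries. In 32 of them (28.6%) the highest or lowest library had a gap to its neighbour that was large for the range of its group. The rate of about 1 in 20 set for chance cannot be compared with this share. Several segments were named because of a high level in 1 library, and values of the same libraries recur. No explanation was tested.

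PBS_SAL 105 stood apart with a heavy V sum of 241 CPM, a kappa V sum of 302.9 CPM, a top heavy share of 50.7% and a top kappa share of 57.3%, and with 122.2 CPM of Ighv8-8 and 173.6 CPM of Igkv4-91. PBS_SAL 81 did so with 19.2 CPM of Ighv1-72, 13.3 CPM of Ighv9-3, 32.2 CPM of Igkv1-135 and 4.22 CPM of Igkv17-121. PBS_SAL 104 had the fewest heavy segments detected in its group, 54, and also the smallest heavy total of that group, 1728 estimated counts. With each library reduced to the smallest heavy total of the series, 70.8 segments were expected in PBS_SAL 104, against a group median of 68.7. The group mean of 64.7 includes 41.8 in PBS_SAL 105. PBS_SAL 80 had the most Iglv2 of the group, 7.69 CPM.

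PBS_CP 76 stood apart with a heavy V sum of 116.3 CPM, a kappa V sum of 179.6 CPM, a top heavy share of 34.3% and a top kappa share of 28.0%. Its levels were 39.8 CPM of Ighv1-26, 50.2 CPM of Igkv1-110, 18.9 CPM of Igkv4-91, 7.10 CPM of Igkv1-117, 4.30 CPM of Ighv1-81, 2.64 CPM of Ighv1-72 and 0.659 CPM of Ighv1-62-2. PBS_CP 59 had 0.483 CPM of Ighv1-71, the highest of its group at a low level.

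HDM_CP 98 stood apart with a heavy V sum of 242 CPM and a kappa V sum of 359.7 CPM. It held 37.3 CPM of Ighv1-81, 35.3 CPM of Igkv17-121, 16.0 CPM of Ighv1-71, 11.1 CPM of Ighv1-62-2, 10.8 CPM of Ighv1-72 and 10.3 CPM of Ighv9-3. No library of HDM_SAL was flagged among the values checked. HDM_SAL 52 nevertheless held 4.42 CPM of Ighv4-1, where the median of its group was 0.334 CPM. Ighv4-1 was not flagged in any group, so a lack of flags does not show that no library stood apart.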

How the results depend on the processing

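No paired analysis was possible because each library number occurs once and the groups share none. No chain sum, number detected or top share passed the threshold under any alternative. The cause of the changes below was not tested. Reduced to the smallest chain total, the heavy numbers detected differed by 3.75, 2.36, -2.88, -1.50 and -5.24 and the kappa numbers by 1.44, 3.36, -0.93, -2.85 and -4.29 (HDM_SAL against PBS_SAL, PBS_CP against PBS_SAL, HDM_CP against HDM_SAL, HDM_CP against PBS_CP, interaction), with signs opposite to the numbers counted. That calculation counted segments with at least 1 count left, and PBS_SAL 105 was lowest in it, with 41.8 heavy and 49.5 kappa segments. At an estimated count of at least 1, without that reduction, the kappa number of HDM_CP against PBS_CP differed by -1.29. In HDM_CP against PBS_CP the effective number differed by -4.69 for kappa and -0.0221 for lambda segments, opposite in sense to the top shares, and the top share of summed TPM by -0.552 for heavy and 0.263 for lambda segments. Without PBS_SAL 105, PBS_SAL 81 and PBS_CP 76, chosen after seeing the data, HDM_SAL less PBS_SAL turned to 0.398 points for the heavy and 1.66 for the kappa top share, PBS_CP less PBS_SAL to 1.74 (kappa), and HDM_CP less PBS_CP to 1.83 (kappa) and 0.230 (lambda).

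The count of called segments in HDM_SAL against PBS_SAL (2) was 1 with no filter and with limma on log2(TPM + 1), 6 by DESeq2, and 0 with runs of library numbers as a term, only the groups compared, limma voom, log2(TPM + 0.1), unfiltered TPM, or without the 3 libraries. That in HDM_CP against PBS_CP (4) was 1 with no filter or a minimum count of 50, 2 with values divided by 4, 8 by DESeq2, and 0 with runs, only the groups compared, limma voom or any TPM fit. That in HDM_CP against HDM_SAL (0) was 5 by DESeq2.

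Leaving out 1 library at a time gave 0 to 4, 0 to 7 and 0 to 1 called segments in those 3 comparisons. The ranges that crossed 0 for HDM_CP against PBS_CP were -1.04 to 3.82 (heavy top share), -1.91 to 1.83 (kappa top share), -1.27 to 1.62 (lambda top share), -0.0452 to 0.503 (kappa log2 sum) and -0.643 to 3.55 (kappa segments detected). For PBS_CP against PBS_SAL they were -7.89 to 1.77, -7.55 to 2.16 and -0.496 to 3.16 (heavy, kappa and lambda top share), and for the interaction -0.256 to 9.45 (kappa top share). Without HDM_CP 98 no segment remained called in HDM_CP against PBS_CP, and without PBS_SAL 105 neither Ighv8-8 nor Igkv4-91 remained called. Many segments rest on few reads, and similar segments share them, so single segments are less certain than sums.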
